A study of Drosophila melanogaster with 26 samples.

Results

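Fat body of wandering third-instar female larvae of Drosophila melanogaster was compared between a high-sugar diet with 0.7 M sucrose and a control diet with 0.15 M sucrose, in 6 of the 26 libraries of the series. The libraries were chosen by their labels alone, as those of the w1118 background with the r4 driver, and they are 3 high-sugar libraries (numbers 61, 62 and 63) and 3 control libraries (55, 56 and 57). All larvae of both diets had w1118 fathers, named in the labels as stock 60000 of the Vienna Drosophila Resource Center (VDRC), and mothers carrying UAS-Dcr2 on the X chromosome and r4-GAL4. Both groups therefore carried a transgene for Dicer-2, the enzyme that cuts long double-stranded RNA, under a GAL4 line used to drive expression in fat body. Per the labels' protocols, food was a modified semi-defined medium, the tissue came from fine dissection or from shearing and centrifugation, and ribosomal RNA was removed before sequencing. These 2 groups shared the stock, the driver and the Dicer-2 transgene. For comparison, 4 high-sugar and 4 control libraries came from fathers of VDRC stock 60100 with the same driver (60100 r4), and 6 high-sugar and 6 control libraries from the w1118 stock with a cg-GAL4 driver (w1118 cg), all with UAS-Dcr2 on the X chromosome and from larvae of the same sex and stage. The labels do not say which way of isolation was used for which library, nor whether the libraries of a diet came from separate cultures, so the p-values measure only the spread between these samples.

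The larval fat body does the work of liver and adipose tissue of mammals. It takes up dietary sugar, turns the excess into glycogen, trehalose (the main blood sugar of insects) and triglyceride, and secretes storage proteins, lipid carriers, immune peptides and hormones into the haemolymph. Before pupariation it loads itself with storage proteins that feed metamorphosis, under control of the steroid ecdysone.

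No unit is named for the deposited values. Exactly 2117 features stood at 1 or above in each of the 6 libraries. The values are therefore read as ratios of a feature's expression to the upper quartile of its library, the unit used below. The features over which that quartile was taken are not given. Sequencing depth is unknown. On high sugar 6565, 6183 and 6625 of 14659 features had a value above 0, against 7124, 7154 and 7538 in control, a difference of -814.3 features between the means (exact permutation test, two-sided, p = 0.1, the smallest p that 3 against 3 allows). Across the 2162 tested features the log2 values correlated at 0.961 to 0.978 (Pearson's r) among high-sugar libraries, at 0.941 to 0.963 among control libraries and at 0.881 to 0.916 between diets. The fat body label was borne out by its markers, whose values summed to 8965, 9887 and 10484 on high sugar and 9093, 12453 and 9496 in control, led by the larval serum proteins and the fat body proteins Fbp1 and Fbp2. Markers of the midgut, which lies beside the fat body in the larva, summed to 11.6, 7.62 and 8.07 on high sugar and 69.7, 187 and 169 in control, without overlap. Among the 31 midgut markers found, 26 were above 0 in some library and 5 were at 0 in all 6. Haemocyte markers also separated the diets in their sum, at 5.81, 5.23 and 4.93 on high sugar and 6.97, 16.3 and 8.35 in control. Of the 3 haemocyte markers tested, 2 had a fitted change below 0 and 1 above it, at 0.62 log2 units. Salivary gland markers overlapped, at 107, 90.99 and 119 on high sugar and 78.96, 15.1 and 205 in control. Sums of Malpighian tubule (1.80 to 3.30 against 3.56 to 6.09), trachea and imaginal disc markers were lower on high sugar without overlap. The ring gland sum was higher without overlap, at 1.79 to 3.37 on high sugar and 0.827 to 1.28 in control. Fewer cells of a type and less RNA per cell cannot be told apart in such bulk samples. The summed values of the 13 tissue lists appear in the plot of marker sums.

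**Figure D1:**
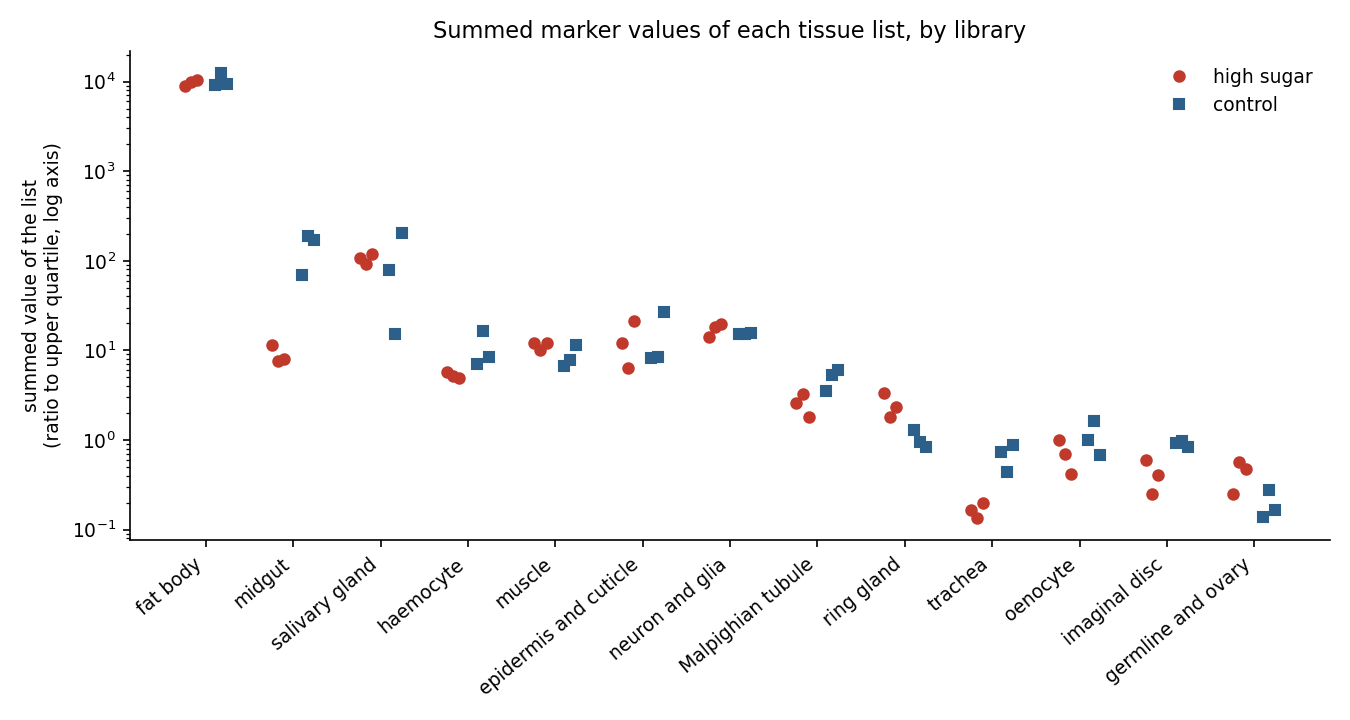
Summed values of 13 lists of tissue markers (vertical axis, ratio to the upper quartile, log scale) in each of 3 high-sugar libraries (red circles) and 3 control libraries (blue squares). Fat body markers lie near the top and overlap between diets, while midgut markers sum to 7.62 to 11.6 on high sugar and to 69.7 to 186.8 in control.

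Dcr-2, whose transgene all larvae carried, had values of 19.7, 15.2 and 7.19 on high sugar and 30.2, 50.2 and 18.04 in control. The groups overlapped, and the change was -1.16 ± 0.45 log2 units, adjusted p = 0.13. The gene white, which is mutant in w1118 and commonly serves as the eye-colour marker of transgenes, stood at 1.72, 1.95 and 1.71 on high sugar and 1.26, 1.15 and 1.29 in control (0.32 ± 0.10 log2 units, adjusted p = 0.081).

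High sugar changed 328 of the 2162 tested features, 15.2%, with 272 higher (12.6%) and 56 lower (2.59%). Genes for lipid synthesis, NADPH supply and stress and immune peptides were among the rises, and digestive proteases, actin Act42A and the ecdysone-induced ImpE2 were among the falls. The groups of all 328 did not overlap, which also held for 39.9% of all tested features, and 85 rises and 33 falls were larger than 1 log2 unit. Changes are differences of log2(value + 1) between diets, which understate the change of low features, given with their standard error, and the call is an adjusted p under 0.05 from limma over all tested features. The split between rises and falls moved with the scale of the libraries. The median change over all tested features was 0.14 log2 units, and when the libraries were scaled so that this median came to -0.02 (median of ratios over the tested features), 146 were higher and 102 lower. Of the 328 calls, 202 were kept in that scaling, 146 of them rises and 56 falls, and 166 (116 rises and 50 falls) were kept under each of the 4 other scalings tried. Single libraries weighed on the count: 115 features passed without high-sugar library 62, 197 without control library 55, 203 without control library 57 and 202 without high-sugar library 63. Calls kept without each library in turn numbered 102, 75 rises and 27 falls.

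**Figure D2:**
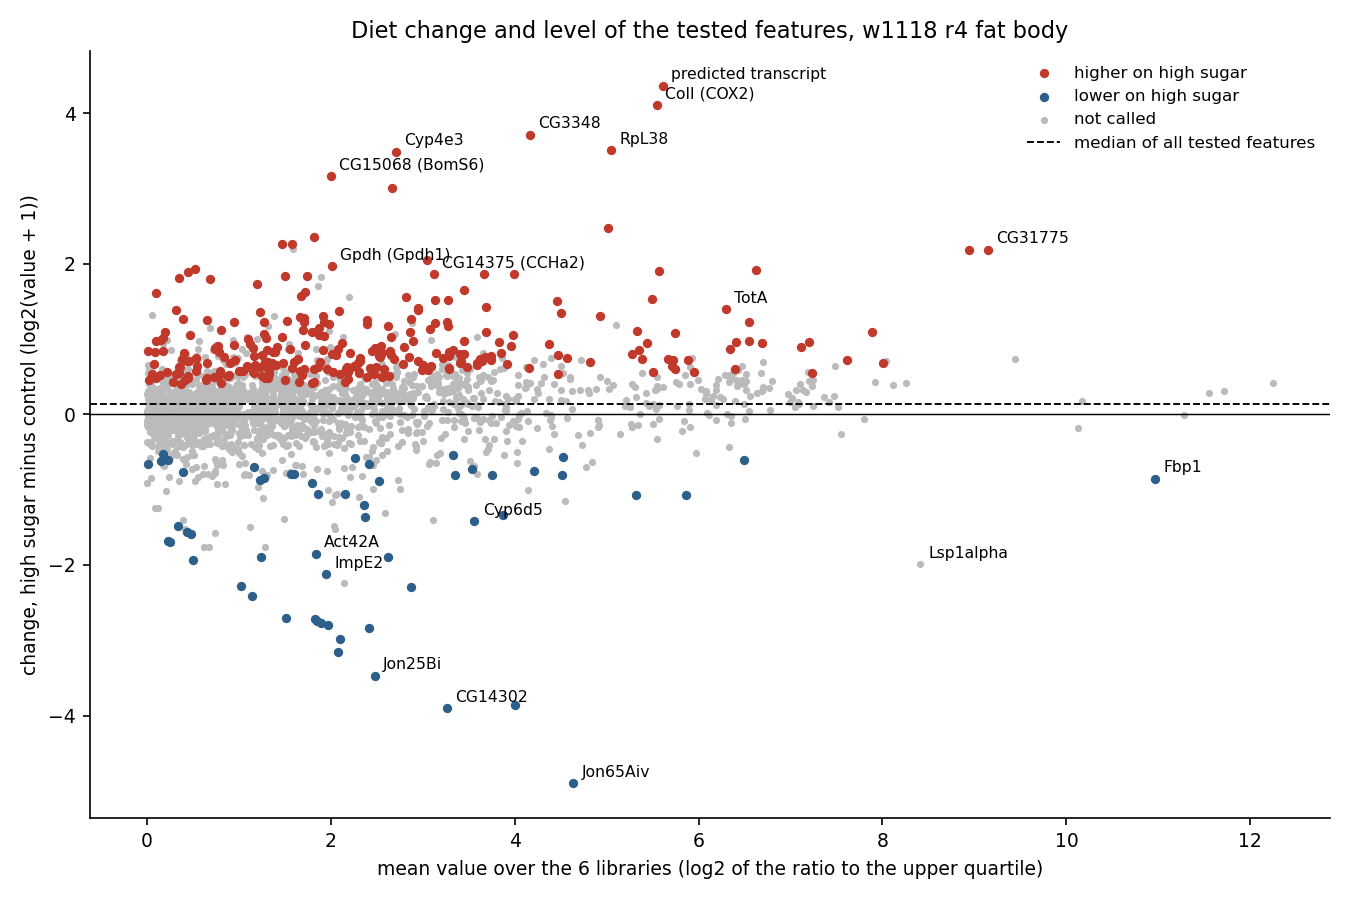
Change of each of 2162 tested features (vertical axis, high sugar minus control, log2(value + 1)) against its mean value over the 6 libraries (horizontal axis, log2). Red points are the 272 features higher and blue points the 56 features lower, called with an adjusted p below 0.05, grey points were not called, and the dashed line is the median of all tested features, 0.14.

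A cytochrome P450, immune-induced peptides, a stress peptide and the enzyme that makes the glycerol backbone of triglyceride were among the large rises. Cyp4e3, a cytochrome P450 of the family that hydroxylates fatty acids and foreign compounds, had values of 12.96, 13.9 and 11.7 on high sugar and 0.128, 0.331 and 0.240 in control, a ratio of the means of 55.2 (3.49 ± 0.12 log2 units, adjusted p = 2.3e-05). CG3348 stood at 29.3, 35.9 and 37.4 on high sugar and 1.27, 1.87 and 1.91 in control, a ratio of 20.3 (3.72 ± 0.16 log2 units, adjusted p = 7.2e-05). In both genes every high-sugar library lay far above every control library, and the call was kept in each scaling and without each library. CG31775, among the 10 features with the highest means on high sugar, had 849.9, 789.5 and 1158 on high sugar and 237, 210.3 and 163 in control (2.19 ± 0.20 log2 units, adjusted p = 0.0012). CG42586 moved with it at 736, 683 and 1002 on high sugar and 205, 182 and 141 in control. The values of this pair stayed in almost the same proportion in all 6 libraries, and reads of the 2 cannot be told apart here. CG14752 stood at 14.9, 13.3 and 13.1 on high sugar and 2.58, 1.44 and 4.21 in control (2.04 ± 0.27 log2 units, adjusted p = 0.0045).

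**Figure D3:**
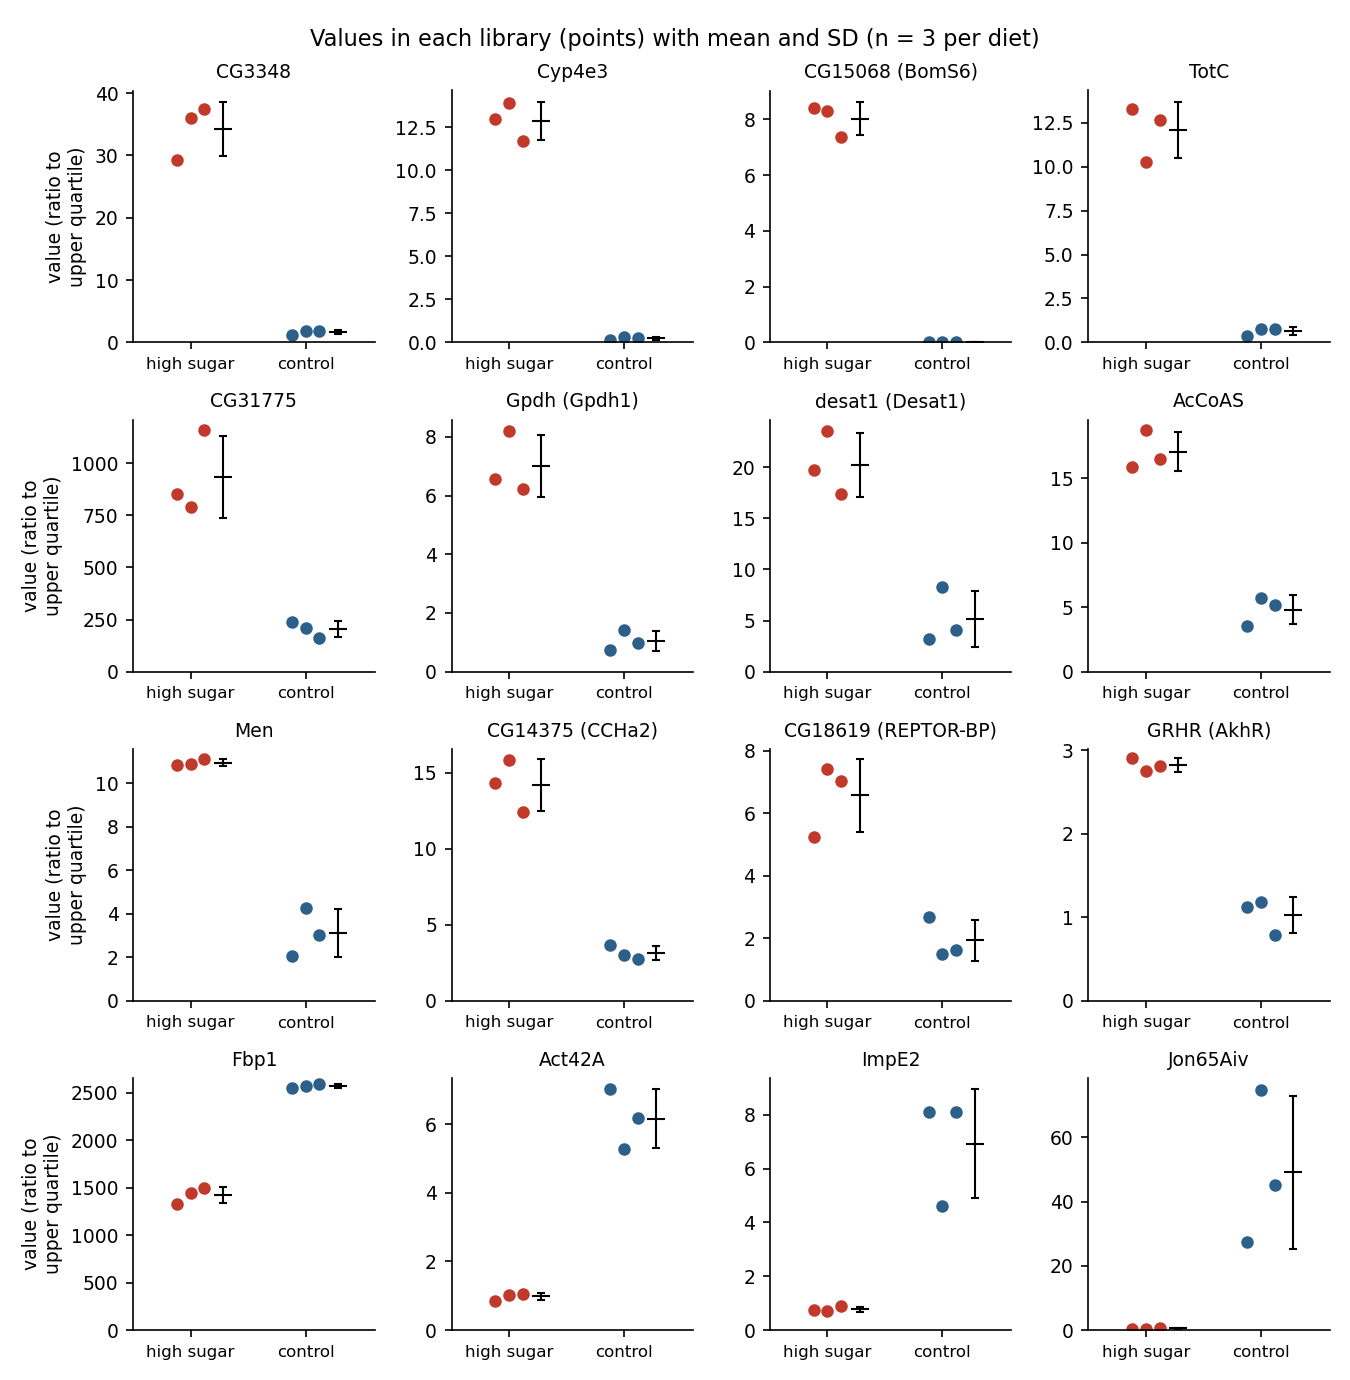
Values of 16 genes in each library (points, vertical axis from 0, ratio to the upper quartile), high sugar in red and control in blue, with the mean and SD beside them (n = 3 per diet). In every panel the 2 diets are separate, as in all 328 calls, with 12 genes higher and 4 (Fbp1, Act42A, ImpE2 and Jon65Aiv) lower on high sugar.

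Several of the largest rises were of features whose control values differed widely between the backgrounds of the series, which were scaled separately. CoII (COX2), a subunit of cytochrome c oxidase encoded in the mitochondrial genome, had 93.9, 131 and 43.8 on high sugar and 2.33, 5.35 and 4.12 in control (4.11 ± 0.43 log2 units, adjusted p = 0.0017). Control libraries ran from 0.769 to 2.98 in the 60100 r4 background and from 154 to 347 in w1118 cg, so that the w1118 r4 control values of CoII overlapped those of 60100 r4 and lay below those of w1118 cg. RpL38, a protein of the large ribosomal subunit, had 55.2, 74.1 and 54.7 on high sugar and 7.26, 2.15 and 5.08 in control (3.51 ± 0.35 log2 units, adjusted p = 0.0015). Its control values were again lower in 60100 r4, at 0.321 to 1.04, and higher in w1118 cg, at 37.1 to 141.6. A predicted transcript without a gene symbol had the largest fitted rise, 4.37 ± 0.35 log2 units, and stood at 127, 102 and 54.3 on high sugar and 2.38, 4.97 and 3.11 in control. Ufd1-like (Ufd1), a partner of the ATPase that extracts proteins for degradation, stood at 2.68, 2.17 and 2.80 on high sugar and 0.00462, 0.0139 and 0.00227 in control (1.81 ± 0.12 log2 units, adjusted p = 0.00035). Its control libraries ran from 2.004 to 2.41 in 60100 r4 and from 0.00741 to 0.713 in w1118 cg. CoVa (COX5A), a nuclear-encoded subunit of cytochrome c oxidase, had 2.81, 1.89 and 12.9 on high sugar and 0.0603, 0.110 and 0.174 in control (2.26 ± 0.54 log2 units, adjusted p = 0.035). Its control values were above these in both other backgrounds, at 13.1 to 15.7 in 60100 r4 and 0.606 to 12.02 in w1118 cg. Of the 272 rises, 18 had all 3 control values below all 10 other control libraries, as had 60 of all 2162 tested features, and the part of these low control values in the rises was not tested. A noncoding feature had 9.07, 7.28 and 3.55 on high sugar and 0.181, 0.661 and 0.434 in control (2.36 ± 0.30 log2 units, adjusted p = 0.0041). The call of CoVa (library 55, 56, 57 or 61, adjusted p up to 0.081) was lost when 1 library was left out. Leaving out 1 library took the mean of Ufd1-like (library 61 or 63) below the filter of 1, so that no test was made there.

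Genes rose at the steps of lipid synthesis that supply acetyl-CoA, desaturate fatty acids and build triglyceride, and the fatty acid synthesis list had the highest median of the 31 pathway lists. Of 12 genes on the fatty acid synthesis list, 5 were tested, 2 rose (40%, against 12.6% of all tested features) and 0 fell. The median change was 0.87 against 0.14 over all tested features. With 5 genes tested this median is the change of CG3523, which was not called. The fitted change was below 0 in 2 of the 5. desat1 (Desat1), the desaturase that makes monounsaturated fatty acids, had 19.7, 23.6 and 17.4 on high sugar and 3.18, 8.27 and 4.06 in control, a ratio of 3.92 (1.86 ± 0.30 log2 units, adjusted p = 0.0095). AcCoAS, which makes acetyl-CoA from acetate, stood at 15.9, 18.8 and 16.5 on high sugar and 3.55, 5.72 and 5.19 in control, a ratio of 3.54 (1.65 ± 0.18 log2 units, adjusted p = 0.0022). Neither gene overlapped between diets, as held for all 328 calls, and both calls were kept in every scaling and without each library. CG3523 (FASN1), the fatty acid synthase, had 3.62, 2.86 and 2.23 on high sugar and 0.585, 2.02 and 0.989 in control (0.87 ± 0.26 log2 units, adjusted p = 0.063), so it did not pass. It passed with the length trend described below removed (1.26 log2 units, adjusted p = 0.0093), where 3 genes of the list rose. HLH106 (SREBP), the transcription factor that drives lipogenic genes in flies, stood at 1.32, 1.12 and 1.10 on high sugar and 1.12, 1.75 and 1.38 in control (-0.14 ± 0.13 log2 units, adjusted p = 0.48).

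Of 17 genes for triglyceride synthesis and lipid droplets, 11 were tested, 3 rose and 0 fell, with a median of 0.33. The 3 are 27.3% of those tested, against 12.6% of all tested features. Gpdh (Gpdh1), which reduces a glycolytic intermediate to glycerol phosphate, had 6.58, 8.21 and 6.22 on high sugar and 0.747, 1.43 and 0.964 in control, a ratio of 6.68 (1.97 ± 0.17 log2 units, adjusted p = 0.00086). mdy, the diacylglycerol acyltransferase that completes triglyceride, stood at 1.39, 1.94 and 1.62 on high sugar and 0.551, 0.488 and 0.415 in control (0.83 ± 0.13 log2 units, adjusted p = 0.0079). Lsd-1, a perilipin that coats lipid droplets and gates lipolysis, had 56.05, 70.3 and 66.9 on high sugar and 41.8, 40.6 and 39.7 in control (0.64 ± 0.14 log2 units, adjusted p = 0.027). The gene for the glycerol backbone, that for the last step and that for the droplet coat were all higher without overlap, as held for all 328 calls. The list for lipolysis and fatty acid oxidation had a median of 0.27. On it 1 of 19 tested genes rose (5.26%, against 12.6% of all tested features) and 0 fell. That gene, CG9527 (Acox3), an acyl-CoA oxidase of peroxisomes, had 5.82, 6.87 and 7.48 on high sugar and 3.98, 4.95 and 4.09 in control (0.53 ± 0.14 log2 units, adjusted p = 0.049). Neither it nor Lsd-1 passed after scaling over the tested features, and the list for lipolysis and oxidation had a median of 0.07. Without 1 library, the call was lost for Lsd-1 (library 55, 57, 62 or 63, adjusted p up to 0.14) and CG9527 (library 55, 57, 61, 62 or 63, adjusted p up to 0.17). Leaving out 1 library took the mean of mdy (library 62 or 63) below the filter of 1, so that no test was made there.

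Malic enzyme and 2 genes of the pentose phosphate pathway were higher as well. The enzyme and the pathway both make NADPH, which fatty acid synthesis consumes. Of 9 genes on the list for this pathway and other sources of NADPH, 7 were tested, 3 rose and 0 fell, with a median of 0.51. The share called higher was 42.9%, against 12.6% of all tested features, and 3 also rose after scaling over the tested features. Men, the malic enzyme that makes NADPH for fatty acid synthesis, stood at 10.8, 10.9 and 11.1 on high sugar and 2.08, 4.29 and 3.03 in control, a ratio of 3.49 (1.56 ± 0.20 log2 units, adjusted p = 0.0044). Pgd, the second dehydrogenase of the pathway, had 4.40, 5.30 and 5.63 on high sugar and 1.54, 2.08 and 1.96 in control (1.09 ± 0.14 log2 units, adjusted p = 0.0041). Tal (Taldo), the transaldolase of the non-oxidative branch, had 14.3, 21.05 and 18.6 on high sugar and 7.81, 7.77 and 7.88 in control (1.09 ± 0.17 log2 units, adjusted p = 0.0079). No high-sugar library overlapped the control libraries in any of these 3 genes, as held for all 328 calls. Idh, a cytosolic source of NADPH, stood at 11.6, 11.2 and 13.2 on high sugar and 8.47, 6.95 and 9.12 in control and did not pass (0.51 ± 0.15 log2 units, adjusted p = 0.061).

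Some genes of glycolysis, glycogen synthesis and gluconeogenesis were higher. Of 13 glycolysis genes 10 were tested, 3 rose (30%, against 12.6% of all tested features) and 0 fell, with a median of 0.38. Of 16 genes for trehalose, glycogen and gluconeogenesis 12 were tested, 2 rose (16.7%, near the same 12.6%) and 0 fell, with a median of 0.46. Gapdh1, a glyceraldehyde phosphate dehydrogenase, had 43.7, 52.8 and 61.3 on high sugar and 29.3, 31.1 and 32.03 in control (0.74 ± 0.16 log2 units, adjusted p = 0.027). Gapdh2 had 12.6, 17.3 and 17.5 on high sugar and 8.80, 9.60 and 9.22 in control (0.71 ± 0.16 log2 units, adjusted p = 0.03). Pgi, the isomerase at the head of the pathway, stood at 6.89, 8.14 and 8.61 on high sugar and 2.44, 5.13 and 3.95 in control (0.91 ± 0.22 log2 units, adjusted p = 0.038). CG33138 (AGBE), the branching enzyme of glycogen synthesis, had 5.54, 6.86 and 6.90 on high sugar and 3.45, 2.996 and 4.18 in control (0.71 ± 0.15 log2 units, adjusted p = 0.024). fbp, the fructose bisphosphatase of gluconeogenesis, had 8.65, 9.77 and 12.3 on high sugar and 6.16, 6.43 and 6.54 in control (0.59 ± 0.15 log2 units, adjusted p = 0.044). CG30035 (Tret1-1), a trehalose transporter, missed the threshold with 13.2, 15.5 and 16.6 on high sugar and 9.09, 11.6 and 9.94 in control (0.52 ± 0.15 log2 units, adjusted p = 0.064), as did CG10924 (Pepck2), a phosphoenolpyruvate carboxykinase, with 10.6, 12.4 and 13.5 on high sugar and 8.72, 8.12 and 8.46 in control (0.48 ± 0.14 log2 units, adjusted p = 0.059). The calls moved with the scale, and after scaling over the tested features 1 glycolysis gene and 0 genes of the trehalose and glycogen list passed, with medians of 0.20 and 0.24. Single libraries decided the calls of Gapdh1 (library 55, 57, 62 or 63, adjusted p up to 0.12), Gapdh2 (library 55, 57, 62 or 63, adjusted p up to 0.14), Pgi (library 55, 57, 61, 62 or 63, adjusted p up to 0.13), CG33138 (library 55, 62 or 63, adjusted p up to 0.1) and fbp (library 55, 56, 57, 62 or 63, adjusted p up to 0.14).

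Genes that sense sugar were not called. Among 8 genes for sugar-responsive transcription factors and their targets, 4 were tested and 0 passed, with a median of 0.13. The factor sugarbabe (sug), a zinc finger factor induced by sugar, had 2.15, 1.29 and 1.84 on high sugar and 0.924, 1.87 and 0.980 in control (0.30 ± 0.20 log2 units, adjusted p = 0.33). dmondo (Mondo), the partner of Mlx in glucose sensing, had 1.68, 1.01 and 0.688 on high sugar and 0.840, 1.73 and 0.472 in control (0.10 ± 0.27 log2 units, adjusted p = 0.83). bigmax, the Mlx protein itself, stood at 1.58, 2.42 and 2.50 on high sugar and 1.68, 1.71 and 2.04 in control. daw, a ligand of the activin branch of TGF-beta signalling, stood at 4.15, 3.44 and 2.74 on high sugar and 3.10, 4.34 and 2.78 in control. All 4 genes overlapped between diets. The fitted changes of dmondo and daw turned negative after scaling over the tested features.

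Among the listed hormones and lipid carriers, the rise was of CG14375 (CCHa2). CG14375 encodes a peptide hormone of the fly fat body and gut that promotes release of insulin-like peptides from the brain. It had 14.3, 15.8 and 12.4 on high sugar and 3.69, 3.03 and 2.79 in control, a ratio of 4.48 (1.87 ± 0.15 log2 units, adjusted p = 0.0007). The call was kept in each scaling and without each library. It was the 1 rise among 10 tested genes of 14 on the list of hormones and lipid carriers, whose median was -0.15. On that list 10% of the tested genes rose and 10% fell, against 12.6% and 2.59% of all tested features. Karl, a secreted lipocalin, was the 1 fall, with 0.501, 0.459 and 0.720 on high sugar and 1.45, 1.32 and 1.62 in control (-0.66 ± 0.12 log2 units, adjusted p = 0.016). The lipid carriers were not called. Mtp, which loads lipoproteins, stood at 3.10, 2.70 and 3.06 on high sugar and 3.73, 5.17 and 3.48 in control (-0.36 ± 0.15 log2 units, adjusted p = 0.15). CG31150 (cv-d), a lipoprotein, stood at 2.21, 2.17 and 2.26 on high sugar and 2.89, 2.78 and 2.51 in control (-0.21 ± 0.10 log2 units, adjusted p = 0.2). The call of Karl was lost without high-sugar library 62 (adjusted p = 0.083). Leaving out control library 55, 56 or 57 took its mean below the filter of 1, so that no test was made there.

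In insulin, FOXO and TOR signalling 6 of 21 genes were tested and 1 passed as higher, 16.7% against 12.6% of all tested features. CG18619 (REPTOR-BP), the partner of a transcription factor held in check by TOR, had 5.24, 7.43 and 7.04 on high sugar and 2.68, 1.50 and 1.63 in control, a ratio of 3.40 (1.38 ± 0.20 log2 units, adjusted p = 0.0066). Thor, the translation repressor induced by FOXO, stood at 78.2, 66.2 and 53.2 on high sugar and 69.6, 148 and 66.2 in control, with overlapping groups (-0.43 ± 0.33 log2 units, adjusted p = 0.39). ImpL2, which binds insulin-like peptides, had 3.99, 2.10 and 1.90 on high sugar and 2.44, 2.34 and 1.31 in control (0.25 ± 0.25 log2 units, adjusted p = 0.52). CG11299 (Sesn), a stress-induced inhibitor of TOR, had 1.14, 0.881 and 0.894 on high sugar and 1.45, 1.98 and 1.56 in control (-0.43 ± 0.13 log2 units, adjusted p = 0.064). CG11299 passed as lower after scaling over the tested features (adjusted p = 0.047). The median over the 6 genes was 0.10, and -0.07 after that scaling.

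Some immune and stress genes were higher, among them short peptides with values near 0 in control. Of 46 antimicrobial and immune genes 19 were tested, 6 rose (3 Bomanins, the Turandot peptides TotA and TotC, and PGRP-SC2) and 0 fell. The 6 are 31.6% of those tested, against 12.6% of all tested features. The fitted change was below 0 in 7 of the 19. The median over the 19 was 0.19, beside 0.14 over all tested features, and it turned to -0.05 with the length trend described below removed. The Bomanins, peptides induced by the Toll pathway, were at or near 0 in control. CG15068 (BomS6) was listed at 0 in all 3 control libraries and had 8.41, 8.30 and 7.37 on high sugar (adjusted p = 2.3e-05). Its 10 control libraries of the other backgrounds, scaled separately, all lay above 0, at 0.411 to 2.62. In w1118 cg its change was 0.64 log2 units and not called (adjusted p = 0.11 by limma). CG16836 (BomT2) had 6.19, 3.67 and 5.86 on high sugar and 0, 0.398 and 0.481 in control (adjusted p = 0.0015). IM3 (BomS3) had 4.66, 2.03 and 2.56 on high sugar and 0, 0 and 0.443 in control (adjusted p = 0.0072). Each of the 3 separated the diets completely, as did all 328 calls. PGRP-SC2, an amidase that degrades peptidoglycan and dampens immune signalling, stood at 20.4, 19.6 and 16.6 on high sugar and 3.53, 6.50 and 10.9 in control (1.42 ± 0.33 log2 units, adjusted p = 0.032), a call lost in 3 of the 4 other scalings. The call of PGRP-SC2 (library 56, 61, 62 or 63, adjusted p up to 0.11) was lost when 1 library was left out.

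The Turandot peptides, which the fly fat body secretes under stress, were examined as a family after their values had been seen, so their counts support nothing. Of 8 members 4 were above 0 in any of the 6 libraries. TotC had 13.3, 10.3 and 12.7 on high sugar and 0.378, 0.767 and 0.757 in control, a ratio of 19.1 (3.003 ± 0.16 log2 units, adjusted p = 0.00013). TotA stood at 141, 105 and 95.8 on high sugar and 52.5, 44.8 and 31.9 in control, a ratio of 2.65 (1.39 ± 0.23 log2 units, adjusted p = 0.011). Victoria (TotE) was listed at 0 in all control libraries and had 2.28, 3.24 and 2.67 on high sugar, and TotB, too low to be tested, had 1.83, 1.43 and 0.248 on high sugar and was listed at 0 in control. In all 4 members every high-sugar library was above every control library. Groups without overlap were also found in all 328 calls and in 39.9% of all tested features. The call of TotA was lost under quantile normalization (adjusted p = 0.054). Leaving out 1 library took the mean of Victoria (library 62) below the filter of 1, so that no test was made there.

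Larval serum proteins and the fat body proteins Fbp1 and Fbp2 were among the features with the highest values. On high sugar the 10 features with the highest means made up 44.9% of the summed values, and in control 46.2%. Lsp2, a larval serum protein taken up as an amino acid store, stood at 3412, 3519 and 4228 on high sugar and 2707, 3390.5 and 2874 in control (0.31 ± 0.13 log2 units, adjusted p = 0.13). Obp99b, of the odorant-binding family, ranked first on both diets and stood at 4822, 5519.9 and 6443 on high sugar and 4294, 3861 and 4312 in control (0.42 ± 0.12 log2 units, adjusted p = 0.057). Fbp2 did not separate the diets, with 2071, 2641 and 2721 on high sugar and 2448, 2461 and 2540.4 in control. Fbp1, the receptor through which fat body takes up larval serum proteins, fell, with 1327, 1447 and 1493 on high sugar and 2544, 2567 and 2588 in control (-0.85 ± 0.09 log2 units, adjusted p = 0.0015). The call was kept in each scaling and without each library. Lsp1alpha had 98.4, 194 and 79.1 on high sugar and 353, 1055 and 261 in control and missed the threshold (-1.99 ± 0.56 log2 units, adjusted p = 0.056). Lsp1gamma had 939.9, 845 and 717 on high sugar and 344, 963 and 367 in control (0.74 ± 0.39 log2 units, adjusted p = 0.23). Fer1HCH, the heavy chain of ferritin, rose, at 25.4, 27.9 and 26.2 on high sugar and 18.4, 19.5 and 16.1 in control (0.54 ± 0.14 log2 units, adjusted p = 0.041), but not after scaling over the tested features (adjusted p = 0.14). Without 1 library, the call was lost for Fer1HCH (library 55, 57, 61, 62 or 63, adjusted p up to 0.18).

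Some genes of the ribosome, the respiratory chain, the proteasome and translation were higher, and the counts moved with the scale. Of 93 genes for cytosolic ribosomal proteins 83 were tested, 15 rose (18.1% of those tested, against 12.6% of all tested features) and 0 fell, with a median of 0.39. After scaling over the tested features 10 rose and the median was 0.17, and under quantile normalization it was 0.03. RpL5 had 189.5, 194 and 199 on high sugar and 116, 91.97 and 92.4 in control (0.96 ± 0.14 log2 units, adjusted p = 0.007). RpS15Aa had 116, 132 and 147 on high sugar and 63.6, 46.96 and 57.5 in control (1.22 ± 0.17 log2 units, adjusted p = 0.0056). Both calls were kept in each scaling. RpS29 stood at 279, 347 and 339 on high sugar and 166, 122 and 163 in control (1.10 ± 0.17 log2 units, adjusted p = 0.0088). The fitted change was above 0 in 78 of the 83 genes, beside 1392 of all 2162 tested features. Among 73 mitochondrial ribosomal proteins 8 were tested and 0 passed. Single libraries decided the call of RpS29 (library 62, adjusted p = 0.0502).

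Of 39 genes of the respiratory chain and ATP synthase 33 were tested, 6 rose and 0 fell, with a median of 0.32. The 6 are 18.2% of those tested, against 12.6% of all tested features. CG3731 (UQCR-C1), a core subunit of complex III, had 3.98, 3.92 and 4.29 on high sugar and 1.15, 1.37 and 1.97 in control (1.03 ± 0.15 log2 units, adjusted p = 0.0064). CG14482 (UQCR-6.4), a small subunit of the same complex, had 4.64, 5.47 and 5.28 on high sugar and 2.83, 1.84 and 2.53 in control (0.86 ± 0.15 log2 units, adjusted p = 0.011). CG4769 (Cyt-c1), the cytochrome of that complex, stood at 2.47, 2.48 and 3.51 on high sugar and 1.53, 1.47 and 1.33 in control (0.63 ± 0.14 log2 units, adjusted p = 0.027). The fitted change was above 0 in all 33 genes, beside 1392 of all 2162 tested features. After scaling over the tested features 4 genes of the list passed as higher, beside 146 of all tested features. Of 22 genes for pyruvate dehydrogenase and the citric acid cycle 16 were tested and 2 rose, a share of 12.5% beside 12.6% of all tested features, with a median of 0.15 beside 0.14. Scsalpha (Scsalpha1), a subunit of succinyl-CoA ligase, had 25.95, 30.9 and 28.2 on high sugar and 16.2, 14.7 and 17.1 in control (0.79 ± 0.14 log2 units, adjusted p = 0.013). CG7430, the dihydrolipoamide dehydrogenase, had 2.46, 2.71 and 3.43 on high sugar and 1.55, 1.55 and 1.70 in control (0.56 ± 0.13 log2 units, adjusted p = 0.029). Pdk, the kinase that shuts pyruvate dehydrogenase, stood at 4.48, 5.57 and 2.87 on high sugar and 6.27, 13.9 and 6.89 in control and did not pass (-0.87 ± 0.32 log2 units, adjusted p = 0.11). When 1 library was left out, the call ended for CG14482 (library 62, adjusted p up to 0.063), CG4769 (library 55, 56, 57 or 62, adjusted p up to 0.076), Scsalpha (library 62, adjusted p up to 0.082) and CG7430 (library 55, 56, 57, 62 or 63, adjusted p up to 0.1).

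Transcripts of the mitochondrial genome itself were uneven, and this group was formed after its values had been seen. Of 13 genes 7 were tested and 4 rose, CoII as given above among them. CoI (COX1) had 60.5, 74.4 and 32.2 on high sugar and 10.4, 12.1 and 5.02 in control (2.47 ± 0.40 log2 units, adjusted p = 0.0092). ND3 had 5.23, 8.79 and 1.48 on high sugar and 0.389, 0.621 and 0.487 in control (adjusted p = 0.039). ND5 had 1.84, 1.86 and 1.62 on high sugar and 0.767, 1.21 and 0.879 in control (adjusted p = 0.039). After scaling over the tested features 2 of them passed. ATPase6 (ATP6) stood at 1.01, 3.78 and 1.13 on high sugar and 0.941, 2.21 and 2.43 in control. CoIII (COX3) stood at 14.8, 26.2 and 2.17 on high sugar and 2.33, 8.78 and 7.55 in control, with overlapping groups. ND4L was listed at 0 in all 6 libraries. The calls of ND3 (library 55, 56, 57, 61 or 62, adjusted p up to 0.11) and ND5 (library 55, 57, 61, 62 or 63, adjusted p up to 0.15) were lost when 1 library was left out.

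The proteasome, which degrades ubiquitinated proteins, had 33 of 48 genes tested, 4 higher and 0 lower, with a median of 0.34 and a fitted change above 0 in all 33 genes. The share called higher, 12.1%, was near the 12.6% of all tested features. Of all 2162 tested features 1392 had a fitted change above 0. After scaling over the tested features 0 passed and the median was 0.14. Rpn6, a lid subunit, had 7.36, 7.27 and 7.83 on high sugar and 5.76, 4.60 and 4.51 in control (0.52 ± 0.13 log2 units, adjusted p = 0.043). Translation factors had 36 of 54 tested, 4 higher and 0 lower, with a median of 0.22 that came to 0.05 after that scaling, where 0 passed. Here too the share called higher, 11.1%, was near that of all tested features. eIF-4a (eIF4A), the helicase of translation initiation, had 50.8, 53.8 and 58.5 on high sugar and 34.8, 35.3 and 39.03 in control (0.57 ± 0.13 log2 units, adjusted p = 0.032). The medians of both lists lay above the 0.14 of all tested features before scaling. Among 23 genes of the endoplasmic reticulum 20 were tested and 3 rose, 15% against 12.6% of all tested features. Sec61gamma, of the translocon, had 8.11, 9.66 and 8.96 on high sugar and 3.70, 2.98 and 3.52 in control, a ratio of 2.62 (1.17 ± 0.13 log2 units, adjusted p = 0.0024). Xbp1, the transcription factor of the unfolded protein response, stood at 15.97, 16.7 and 18.1 on high sugar and 9.39, 9.48 and 10.7 in control (0.73 ± 0.13 log2 units, adjusted p = 0.013). Crc (Calr), a calcium-binding chaperone, stood at 59.4, 65.8 and 71.98 on high sugar and 34.8, 37.1 and 47.2 in control (0.72 ± 0.17 log2 units, adjusted p = 0.031). Without 1 library, the call was lost for Rpn6 (library 55, 56, 57, 61, 62 or 63, adjusted p up to 0.14), eIF-4a (library 55, 56, 57, 61, 62 or 63, adjusted p up to 0.14), Xbp1 (library 55 or 62, adjusted p up to 0.076) and Crc (library 55, 56, 61, 62 or 63, adjusted p up to 0.13).

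The change also varied with transcript length. Over 2120 tested features with a length in the reference annotation, the change correlated with length at a Spearman's rho of -0.26, across genes that are not independent and share the 6 libraries. With the features ordered by length and split into 5 equal groups, the median change was 0.29, 0.23, 0.17, 0.08 and -0.02 from the shortest to the longest. Features higher on high sugar numbered 85, 58, 60, 37 and 23 in these groups, and features lower 10, 19, 10, 6 and 8. With this trend taken out of each library, 147 features were higher and 111 lower, and 196 of the 328 calls were kept. Ribosomal protein genes have a median length of 708 bases, against 1448 over all tested features, and their median change was 0.10 without the trend.

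**Figure D4:**
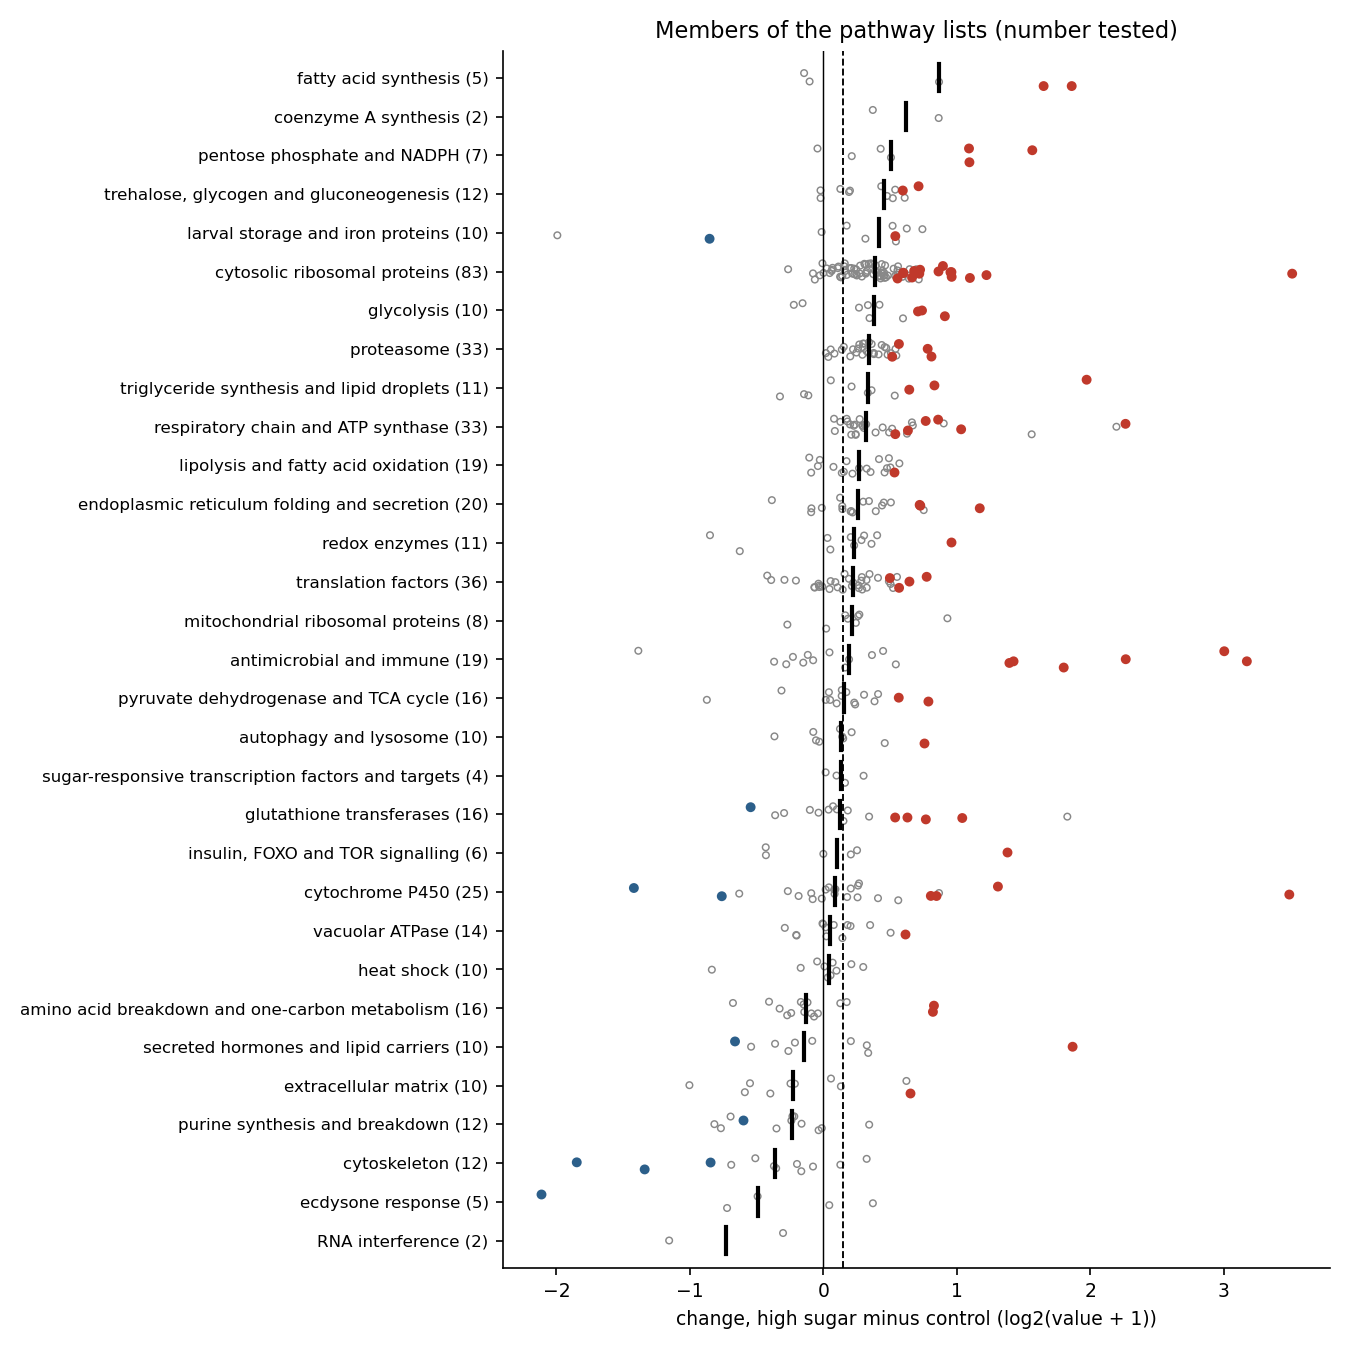
Change of each tested member (points, high sugar minus control, log2(value + 1)) of 31 pathway lists, ordered by their medians (black bars), with the number tested in parentheses. Filled red and blue points are genes higher and lower at an adjusted p under 0.05, open points were not called, and the dashed line is the median of all tested features, 0.14.

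Detoxification genes moved both ways. Of 83 cytochrome P450 genes 25 were tested, 4 rose and 2 fell, with a median of 0.09. These are 16% and 8% of those tested, against 12.6% and 2.59% of all tested features. After scaling over the tested features 2 passed as higher and the median was -0.04. Beside Cyp4e3, Cyp4d1 had 33.4, 44.6 and 54.4 on high sugar and 16.9, 18.96 and 15.02 in control, a ratio of 2.60 (1.31 ± 0.21 log2 units, adjusted p = 0.0091). Cyp6d5 fell, with 4.47, 7.83 and 5.71 on high sugar and 21.3, 17.8 and 13.8 in control, a ratio of 0.340 (-1.42 ± 0.23 log2 units, adjusted p = 0.0096). Cyp12a4, a mitochondrial P450, had 0.657, 0.758 and 0.712 on high sugar and 2.01, 2.39 and 1.38 in control (-0.76 ± 0.15 log2 units, adjusted p = 0.02). Single P450 genes thus passed in both directions. Of 34 glutathione transferases 16 were tested, 4 rose and 1 fell, 25% and 6.25% against 12.6% and 2.59% of all tested features. GstE7 had 5.25, 5.78 and 5.38 on high sugar and 2.49, 2.10 and 1.88 in control (1.04 ± 0.12 log2 units, adjusted p = 0.0031). The other 3 rises (GstE3, GstE8 and GstE9, neighbours of GstE7 in one cluster of similar genes) did not pass after scaling over the tested features. GstS1, of another class, fell, with 7.33, 8.57 and 8.05 on high sugar and 11.3, 14.2 and 10.99 in control (-0.55 ± 0.15 log2 units, adjusted p = 0.04999), a call lost under median-of-ratios scaling over all features. Among redox enzymes 1 of 11 tested passed as higher, 9.09% against 12.6% of all tested features. This was Sod (Sod1), the cytosolic superoxide dismutase, with 17.6, 19.1 and 20.4 on high sugar and 11.3, 7.52 and 9.41 in control (0.96 ± 0.17 log2 units, adjusted p = 0.013). Cat, the catalase, went the other way at 20.6, 21.01 and 25.05 on high sugar and 29.9, 41.8 and 33.6 in control, with groups that did not overlap (-0.63 ± 0.17 log2 units, adjusted p = 0.053). It passed as lower after scaling over the tested features (adjusted p = 0.021). Single libraries decided the calls of Cyp12a4 (library 55, 61, 62 or 63, adjusted p up to 0.077), GstE3 (library 55, 56, 57, 62 or 63, adjusted p up to 0.14), GstE8 (library 55, 57, 61, 62 or 63, adjusted p up to 0.13), GstE9 (library 55, 56, 57, 61, 62 or 63, adjusted p up to 0.11), GstS1 (library 55, 56, 57, 61, 62 or 63, adjusted p up to 0.14) and Sod (library 62, adjusted p up to 0.068).

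Digestive enzymes were among the largest falls. Of these 31 midgut markers, 14 were tested, 7 fell (50%, against 2.59% of all tested features) and 0 rose. Their median was -2.02 against 0.14 over all tested features, and 7 of the 33 falls by more than 1 log2 unit were on this list. Jon65Aiv, a serine protease of the Jonah family made in the midgut, had 0.514, 0.413 and 0.774 on high sugar and 27.5, 74.7 and 45.3 in control, a ratio of 0.0115 (-4.89 ± 0.34 log2 units, adjusted p = 0.00038). Jon65Aiii stood at 1.42, 0.474 and 1.42 on high sugar and 16.7, 44.2 and 32.3 in control (-3.86 ± 0.37 log2 units, adjusted p = 0.0014). Jon25Bi stood at 0, 0 and 0.218 on high sugar and 7.84, 12.01 and 13.4 in control (adjusted p = 0.00024). LysS, a lysozyme of the gut, had 0, 0.636 and 0.756 on high sugar and 4.29, 13.8 and 12.5 in control (adjusted p = 0.0072). yip7, another serine protease, had 0.236, 0 and 0.351 on high sugar and 7.25, 9.04 and 8.91 in control (adjusted p = 0.00013). Every control library lay above every high-sugar library in all of these genes, as in every feature called lower, and control library 55 had the lowest of the control values in each. The trypsins deltaTry, gammaTry, CG30025 and CG30031 also fell, with 0.181, 0.0965 and 0.211 on high sugar and 3.58, 10.2 and 9.37 in control for deltaTry, but their values followed each other closely in all 6 libraries, and reads of such paralogs cannot be told apart here. Jon99Ciii, another Jonah gene, did not pass, with 1.17, 0.671 and 0.494 on high sugar and 0.453, 1.95 and 5.31 in control (-0.77 ± 0.49 log2 units, adjusted p = 0.31). The midgut marker sums given above, 7.62 to 11.6 on high sugar and 69.7 to 186.8 in control, moved with these falls, and the part of midgut tissue in them was not tested.

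Several other falls were of genes at or near 0 on high sugar. CG14302 had 0, 0 and 0.694 on high sugar and 8.15, 29.9 and 19.1 in control (adjusted p = 0.0029). CG31789 was listed at 0 in all high-sugar libraries and had 4.35, 11.5 and 9.50 in control. CG8664 was likewise at 0 on high sugar and had 3.62, 5.60 and 7.97 in control. In all, 9 features were listed at 0 in every high-sugar library and stood at 1 or above in every control library, and 3 showed the reverse. The 9 included the midgut protease Jon25Bii, with 2.44, 3.86 and 5.91 in control, CG12115, with 2.97, 5.46 and 4.86 in control, CG32302, with 2.48, 2.99 and 3.07 in control, and CG6933, with 1.23, 3.84 and 2.10 in control. The 3 were CG15068 and Victoria, given above, and CG14275, with 2.39, 2.77 and 1.25 on high sugar. CG8193 (PPO2), the prophenoloxidase of crystal cells, was the 1 call on the haemocyte list and fell, with 0.205, 0 and 0.237 on high sugar and 1.09, 3.96 and 2.13 in control (adjusted p = 0.021). Of the 3 tested genes on that list 1 had a fitted change above 0. The part of haemocytes, whose marker sum was lower as well, was not tested. CG7953 had 1.75, 1.33 and 1.65 on high sugar and 5.20, 15.9 and 18.1 in control (-2.30 ± 0.41 log2 units, adjusted p = 0.013). In CG14302, CG31789, CG8664, CG12115, CG32302, CG6933 and CG7953 control library 55 was the lowest control library, as in the midgut marker sum. The part of midgut tissue in these falls was not tested either. A noncoding feature had 1.21, 2.19 and 2.59 on high sugar and 10.2, 6.55 and 14.3 in control. When 1 library was left out, the call ended for CG8193 (library 57, 61, 62 or 63, adjusted p up to 0.087) and CG7953 (library 62, adjusted p up to 0.061). Leaving out 1 library took the mean of CG14275 (library 61 or 62), CG6933 (library 56) and CG8193 (library 56) below the filter of 1, so that no test was made there.

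Outside the digestive enzymes, genes of the cytoskeleton and an ecdysone target fell. Of 13 cytoskeleton genes 12 were tested, 3 fell (25%, against 2.59% of all tested features) and 0 rose, with a median of -0.36. Act42A, a cytoplasmic actin, had 0.857, 1.03 and 1.06 on high sugar and 7.02, 5.28 and 6.17 in control, a ratio of 0.159 (-1.85 ± 0.13 log2 units, adjusted p = 0.00038). cib, an actin-binding protein of the thymosin type, stood at 10.3, 7.72 and 5.89 on high sugar and 22.6, 22.4 and 18.9 in control (-1.34 ± 0.21 log2 units, adjusted p = 0.0084). betaTub60D, a beta-tubulin, stood at 1.89, 1.01 and 1.47 on high sugar and 3.89, 3.01 and 3.25 in control (-0.85 ± 0.16 log2 units, adjusted p = 0.018). Act5C, the other cytoplasmic actin, had 46.2, 52.03 and 56.4 on high sugar and 77.5, 64.6 and 79.6 in control without overlap and missed the threshold (-0.51 ± 0.15 log2 units, adjusted p = 0.064), but passed after scaling over the tested features (adjusted p = 0.013). ImpE2, a secreted protein induced by ecdysone, fell to 0.746, 0.716 and 0.892 on high sugar, against 8.09, 4.60 and 8.10 in control, a ratio of 0.113 (-2.12 ± 0.21 log2 units, adjusted p = 0.0014). It was the 1 call among 5 tested of 17 ecdysone genes, 20% lower against 2.59% of all tested features. The early gene br had 3.54, 2.25 and 1.70 on high sugar and 5.996, 4.86 and 3.36 in control (-0.72 ± 0.25 log2 units, adjusted p = 0.094). Eip75B, a nuclear receptor of the response, had 1.08, 0.671 and 0.530 on high sugar and 1.34, 2.14 and 1.03 in control (-0.49 ± 0.20 log2 units, adjusted p = 0.14), so neither passed. The call of betaTub60D (library 55, 62 or 63, adjusted p up to 0.068) was lost when 1 library was left out.

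Nitrogen metabolism showed 1 call downwards and 2 upwards. Of 16 genes for purine synthesis and breakdown 12 were tested and 1 fell, 8.33% against 2.59% of all tested features. The fitted change was below 0 in 11 of the 12, beside 770 of all 2162 tested features, with a median of -0.24. CG11089, the bifunctional enzyme that closes the purine ring, had 66.9, 61.6 and 86.4 on high sugar and 109, 104 and 112 in control (-0.61 ± 0.16 log2 units, adjusted p = 0.049). Uro, the urate oxidase, stood at 1.91, 2.44 and 1.31 on high sugar and 2.45, 4.42 and 5.11 in control (-0.77 ± 0.25 log2 units, adjusted p = 0.081). Uro was also the 1 tested gene among the Malpighian tubule markers, whose sum was lower on high sugar. The part of that tissue in its values was not tested. ade3 (Gart), an enzyme of several steps of the route, stood at 18.3, 15.4 and 29.6 on high sugar and 35.5, 27.9 and 38.00 in control (-0.70 ± 0.26 log2 units, adjusted p = 0.12). Among 25 genes for amino acid breakdown and one-carbon metabolism 16 were tested and 2 rose, 12.5% against 12.6% of all tested features, with a median of -0.13. Odc1, the ornithine decarboxylase that starts polyamine synthesis, had 9.78, 11.2 and 13.9 on high sugar and 6.08, 6.33 and 5.80 in control (0.82 ± 0.15 log2 units, adjusted p = 0.016). CG6415, an aminomethyltransferase of glycine cleavage, had 9.98, 12.97 and 15.5 on high sugar and 6.75, 7.28 and 6.04 in control (0.83 ± 0.18 log2 units, adjusted p = 0.026). Without 1 library, the call was lost for CG11089 (library 55, 56, 57, 61 or 62, adjusted p up to 0.19), Odc1 (library 55, 57 or 62, adjusted p up to 0.073) and CG6415 (library 55, 57, 62 or 63, adjusted p up to 0.11). Median-of-ratios scaling ended the call of CG11089 (adjusted p = 0.055), and quantile normalization that of CG6415 (adjusted p = 0.056). Of 16 heat shock genes 10 were tested and 0 passed. On the remaining lists 1 of 10 tested genes rose for autophagy and the lysosome, 1 of 14 for the vacuolar ATPase and 1 of 10 for the extracellular matrix. These shares of 10%, 7.14% and 10% were below the 12.6% of all tested features called higher. On these 3 lists 0 fell, and 0 passed among 2 tested genes each for coenzyme A synthesis and RNA interference.

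The same diet contrast was measured with the same driver in another VDRC stock, 60100, in 4 high-sugar and 4 control libraries scaled separately, so these values share no sample with those above. Changes there are called from a fit with the set of library numbers as a term. Control libraries 67 and 83 correlated at 0.991 and high-sugar libraries 75 and 91 at 0.990 (Pearson's r across tested features), the highest of the pairs of each diet, and the labels do not say whether such pairs share material. With each of these pairs averaged and no set term, an alternative chosen after seeing the data, 2 features passed, CG3348 (2.92 log2 units, adjusted p = 0.03) and CG14275 (1.86 log2 units, adjusted p = 0.028), so the other calls below hold only with all 8 libraries counted as separate samples. With 8 separate samples, 4 of the genes of lipid synthesis and NADPH supply described above were called as rises in both stocks. desat1 changed by 1.01 log2 units in 60100 r4 (adjusted p = 0.031), Gpdh by 1.62 (0.016), Men by 1.09 (0.044) and Pgd by 1.31 (0.021), with adjusted p-values in parentheses. AcCoAS had 0.89 (0.077), Tal 0.90 (0.064), mdy 0.40 (0.16) and Lsd-1 0.29 (0.24), and these were not called there. CG3348 changed by 2.77 (0.008), and the falls of Act42A, at -1.35 (0.016), Cyp6d5, at -1.04 (0.021), and ImpE2, at -1.82 (0.021), were called in both stocks. Fbp1 changed by -0.60 (0.1) and TotC by 1.45 (0.16) in 60100 r4 and were not called there.

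In all, limma called 235 of the 2162 features in 60100 r4 (10.9%), 133 higher (6.15%) and 102 lower (4.72%), and 79 were called in the same direction in both stocks, which is 24.1% of the w1118 r4 calls and 33.6% of the 60100 r4 calls. By direction, 66 of the 272 rises and 13 of the 56 falls were shared, and 0 features were called in opposite directions. Across the 2162 features, which are not independent, the changes in the 2 stocks correlated at a Pearson's r of 0.42 and a Spearman's rho of 0.55. The digestive proteases had the other sign in 60100 r4. The median of the midgut list was 1.16 there, and Jon65Aiv changed by 1.29 (adjusted p = 0.4), with means of 29.5 on high sugar and 23.02 in control. The difference of its diet change between stocks, -6.19 log2 units, missed the threshold (adjusted p = 0.063).

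The difference of the diet change between the 2 stocks passed for 27 features (1.25%), 23 with a higher (1.06%) and 4 with a lower change (0.185%) in w1118 r4. The hormone CG14375 was one of them, with a difference of 1.05 ± 0.22 log2 units (adjusted p = 0.048), as was Sec61gamma, with 1.19 ± 0.19 log2 units (adjusted p = 0.018). Both were picked out after their values were seen. This count ran from 4 without high-sugar library 62 of w1118 r4 to 48 without control library 56.

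With the same w1118 stock and the cg driver, whose GAL4 is active in fat body and haemocytes, 6 high-sugar and 6 control libraries gave 363 calls (16.8%), 241 higher (11.1%) and 122 lower (5.64%). Of these, 107 were in the same direction as in w1118 r4, 32.6% of the w1118 r4 calls and 29.5% of the w1118 cg calls, and 4 (7B2, Act57B, Arc2 and CG4325) were in the opposite one. Among the genes above, CG3348 changed by 2.82 log2 units in w1118 cg (adjusted p = 6.0e-06), Gpdh by 1.80 (0.00038), desat1 by 1.53 (0.0087) and Lsd-1 by 1.04 (0.0034). REPTOR-BP (CG18619) changed by -0.01 there, and the difference of its diet change between drivers was 1.39 log2 units (adjusted p = 0.00039). For Fbp1, which changed by 0.10 in w1118 cg, the difference was -0.95 (adjusted p = 0.032). These differences were likewise chosen after their values were seen. The difference between drivers passed for 243 features (11.2%), 189 with a higher (8.74%) and 54 with a lower change (2.5%) in w1118 r4, but for 35 when the groups were fitted without their sets of library numbers. The w1118 r4 libraries are numbered and scaled as a set of their own, so background and set cannot be told apart in any of these differences.

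**Figure D5:**
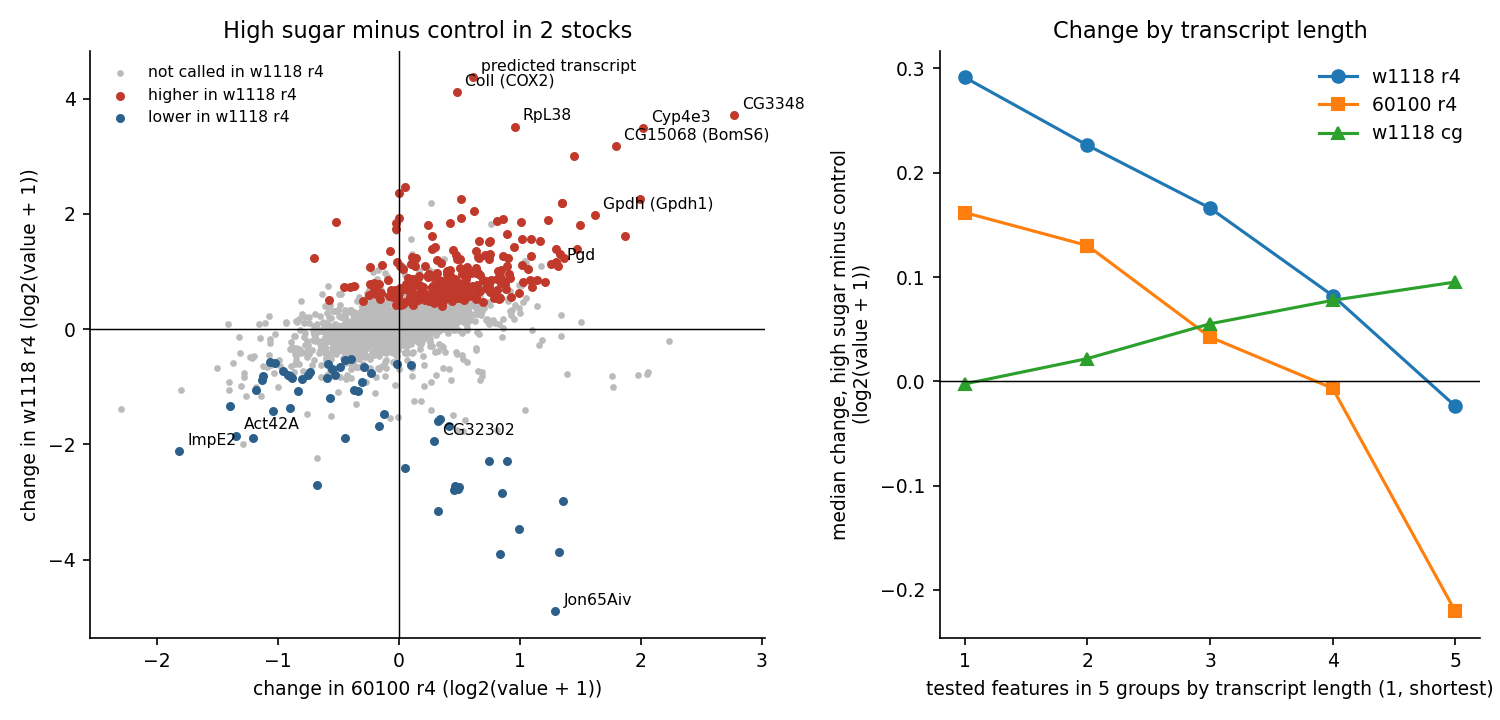
Left, change of each tested feature in w1118 r4 (vertical axis) against its change in 60100 r4 (horizontal axis), both high sugar minus control in log2(value + 1), with the 272 rises of w1118 r4 in red and its 56 falls in blue; Jon65Aiv lies low at -4.89 and 1.29. Right, median change (vertical axis, same unit) in each of 5 groups of the features by transcript length (horizontal axis), with a line each for w1118 r4, 60100 r4 and w1118 cg, which in w1118 r4 runs from 0.29 for the shortest to -0.02 for the longest.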

How the data were processed

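The deposited table gives 1 value for each of 14659 features in each library; depth is unknown. Per the submitters' processing notes, TopHat 1.3.2, Bowtie 0.12.7 and Cufflinks 1.1.0 were used with build dm3; the sources used here do not give the annotation, filters or scaling. No unit is named. From the values, the authors deposited a ratio of an expression value to the library's own upper quartile, with length scaling presumed, and sets of library numbers were scaled separately. The planned tests assumed a normalized unit of this kind, and none was replaced. Columns were matched to samples by diet, stock, driver and number. Symbols were matched for 13644 features to RefSeq by locus tag, and 971 of 977 list entries were found.

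Features with a mean of at least 1 over the 6 libraries were tested two-sided on log2(value + 1) with limma 3.58.1 under R 4.3.3, using a variance trend and Benjamini-Hochberg adjustment at 0.05; scripts were tested on simulated data. Named genes are the 15 largest rises and falls with a mean of 5 or more in either diet, up to 4 members of each list by adjusted p plus members needed for their role, the 10 most abundant features, features at 0 in one diet, the 6 strongest differences between backgrounds, and Dcr-2 and white. The genes, lists and comparisons were chosen with earlier results of these data known. Alternatives changed the pseudocount, filter, scaling, variance prior, fit and libraries; scaling over the tested features, removal of the length trend, averaging of 4 libraries and group means in 60100 r4 were added after seeing the data. No sequences or coordinates are given.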

Additional observations from a re-analysis of the deposited data

Results flagged for a closer look

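The results below are those whose diet change differed between w1118 r4 and another background by a test of the difference itself (limma, high sugar minus control in w1118 r4 minus the same in the other background, in log2 units), with the smallest adjusted p of each difference. Background and set of library numbers cannot be told apart in them.

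Against 60100 r4, Ufd1-like had a difference of 1.57 (adjusted p = 0.00037). Its values were at or below 0.0139 in the w1118 r4 control libraries, against 2.004 to 2.41 in those of 60100 r4. A noncoding feature had a difference of 1.92 (adjusted p = 0.00057) and another 2.36 (adjusted p = 0.0069), and both were listed at 0 in all 60100 r4 control libraries. CG32302 had a difference of -2.23 (adjusted p = 0.0069) and was listed at 0 in all 3 w1118 r4 high-sugar libraries. The predicted transcript without a gene symbol had a difference of 3.75 (adjusted p = 0.018), and CG40439 one of 1.08 (adjusted p = 0.018). Both were lost without control library 57 of w1118 r4 (adjusted p = 0.0512 each), the transcript also without high-sugar library 62 (adjusted p = 0.074) and CG40439 with a pseudocount of 0.1 (adjusted p = 0.24).

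Against w1118 cg, Victoria, a Turandot gene, had a difference of 1.89 (adjusted p = 4.0e-09) and was listed at 0 in all 12 w1118 cg libraries. CoII had a difference of 4.51 (adjusted p = 1.0e-05), with 118 to 265 on high sugar and 154 to 347 in control in w1118 cg. RpL38 had a difference of 3.21 (adjusted p = 1.7e-05), with 49.2 to 142 on high sugar and 37.1 to 142 in control there. In CoII and RpL38 the w1118 r4 control values lay below this range. In 60100 r4 control values ran from 0.769 to 2.98 for CoII, overlapping those of w1118 r4, and from 0.321 to 1.04 for RpL38, below them. CG14752 had a difference of 2.04 (adjusted p = 4.2e-05) and was listed at 0 in all w1118 cg libraries. The standard error of this difference was 0.21, against 0.27 for the change in w1118 r4 alone. Arc2, a capsid-forming relative of retrotransposon Gag proteins, had a difference of 1.11 (adjusted p = 1.6e-05), and Inos, the enzyme that makes inositol phosphate from glucose phosphate, one of 1.56 (adjusted p = 8.8e-05). Inos had 7.78, 9.28 and 7.52 on high sugar and 3.64, 5.48 and 5.80 in control in w1118 r4 (0.64 ± 0.18 log2 units, adjusted p = 0.059), and 0.246 to 0.640 on high sugar and 0.971 to 2.66 in control in w1118 cg.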

How the results depend on the processing

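No paired analysis was possible because the diets share no replicate numbers. Of 328 features changed (272 higher, 56 lower), counts became 646 (365 lower) with no filter on low values, 180 (149 and 31) with a mean of at least 5, 508 (110 lower) with the spread shared over all 26 libraries and 726 (537 and 189) in a robust fit with array weights. Higher and lower calls numbered 156 and 82 under quantile normalization, 146 and 102 after scaling over the tested features (58.9% higher, against 82.9%) and 147 and 111 with the length trend removed. Leaving out each library in turn gave 115 to 308 changed, 79 to 239 higher and 36 to 69 lower. The difference from 60100 r4 (27 features) gave 66 with no filter, 59 with group means, 15 after scaling over the tested features, 8 with the length trend removed and 4 to 48 without single libraries. With libraries 67 and 83 averaged, and 75 and 91, which resemble each other, it gave 19. Calls in 60100 r4 (235, of which 79 shared) numbered 384 with group means and 2 (both shared) with these libraries averaged. The difference from w1118 cg (243) gave 635 with no filter, 100 with a mean of at least 5, 35 with group means and 122 to 247 without single libraries. The difference in features above 0 was -898 to -677 without single libraries. The causes were not tested.

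Of 97 named calls, 56 were kept under every setting in which they were tested. The named changes that turned sign were all of uncalled genes. With the length trend removed mRpL22 came to -0.0078, bigmax to -0.091 and CG34166 to -0.051. After scaling over the tested features dmondo came to -0.0065, daw to -0.15 and Lsp1beta to -0.050. Under quantile normalization daw came to -0.091, Lsp2 to -9.8e-16 (0 within rounding), Fbp2 to 0.25, Lsp1gamma to -0.12 and CG2233 to -0.33. Fbp2 came to 0.014 by median-of-ratios scaling and to 0.051 in the robust fit, where Hsp60 came to -0.14. Without single libraries daw ran from -0.10 to 0.16, DnaJ-1 from -0.044 to 0.55, Hsp27 from -0.51 to 0.0013, Fbp2 from -0.086 to 0.11, Lsp1beta from -0.15 to 0.64 and dmondo from -0.10 to 0.25. Depth is unknown, so how far it limits low features cannot be given.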

Other observations

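Further genes changed on high sugar outside the lists above, and these were chosen after their values were seen. 2 receptors of metabolic hormones rose. GRHR (AkhR), the receptor of the adipokinetic hormone that mobilises fat body stores, had 2.91, 2.75 and 2.81 on high sugar and 1.12, 1.18 and 0.784 in control (0.92 ± 0.12 log2 units, adjusted p = 0.0045 by limma), and CG5315 (AdipoR), the fly adiponectin receptor, had 8.003, 7.95 and 8.98 on high sugar and 4.46, 4.32 and 3.80 in control (0.84 ± 0.12 log2 units, adjusted p = 0.007). Among genes of amino acid synthesis, asparagine-synthetase (AsnS), which makes asparagine, stood at 6.42, 3.35 and 6.21 on high sugar and 1.14, 1.33 and 0.793 in control (1.57 ± 0.23 log2 units, adjusted p = 0.007), and CG7470 (P5CS), which starts proline synthesis from glutamate, at 16.7, 18.2 and 21.3 on high sugar and 9.77, 10.8 and 9.75 in control (0.82 ± 0.14 log2 units, adjusted p = 0.012), a call lost without library 62 (adjusted p = 0.064). CG8498 (Acbp1), of the acyl-CoA-binding proteins, had 13.9, 14.8 and 12.9 on high sugar and 5.88, 4.41 and 5.80 in control (1.23 ± 0.15 log2 units, adjusted p = 0.0036). No high-sugar library overlapped the control libraries in any of these genes, as held for all 328 calls.

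Small subunits of the respiratory chain outside the list also rose. CG32230 (ND-MLRQ), of complex I, had 10.4, 12.9 and 11.9 on high sugar and 3.77, 3.77 and 3.69 in control (1.42 ± 0.13 log2 units, adjusted p = 0.0011), and CG7630 (COX7B), of cytochrome c oxidase, had 9.56, 10.3 and 10.9 on high sugar and 4.86, 4.25 and 3.70 in control (1.10 ± 0.14 log2 units, adjusted p = 0.0041). CG9836 (IscU), the scaffold on which iron-sulfur clusters are built, had 5.71, 6.54 and 5.17 on high sugar and 0.794, 0.925 and 0.954 in control (1.84 ± 0.12 log2 units, adjusted p = 0.00034), while its control values in the other backgrounds ran from 2.05 to 16.7 in libraries scaled separately. Vago, a secreted peptide induced by viral infection, stood at 51.4, 52.1 and 62.3 on high sugar and 25.96, 22.8 and 26.5 in control (1.11 ± 0.15 log2 units, adjusted p = 0.0048).

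Falls outside the lists included chromatin and microtubule genes. His2Av, the histone H2A variant of flies, had 2.61, 1.91 and 3.78 on high sugar and 6.91, 6.76 and 8.95 in control (-1.20 ± 0.21 log2 units, adjusted p = 0.012). Jupiter, a microtubule-binding protein, had 2.15, 1.69 and 1.88 on high sugar and 4.21, 3.81 and 4.02 in control (-0.79 ± 0.11 log2 units, adjusted p = 0.0066), and mod(mdg4), a BTB protein of chromatin insulators, had 1.95, 1.85 and 2.06 on high sugar and 3.75, 3.99 and 4.65 in control (-0.79 ± 0.12 log2 units, adjusted p = 0.007). CG32335 (meep) stood at 0.342, 0.448 and 0.449 on high sugar and 3.76, 5.37 and 3.81 in control (-1.90 ± 0.15 log2 units, adjusted p = 0.00062). Each of these 4 calls was kept in the 4 other scalings and without each library.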
